A study of Mus musculus with 9 samples.

Results

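Basal cells of the mouse sebaceous gland at postnatal day 30 (P30) were compared with those at postnatal day 10 (P10), using all 3 libraries of each age out of the 9 libraries of the series. The series was made to set gland progenitors during morphogenesis against those at steady-state homeostasis, and the remaining 3 libraries, from postnatal day 4, did not enter the comparison. Of 24972 gene symbols counted, the 14477 with at least 10 counts in 3 or more of the 6 libraries were tested.

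Both groups came from C57BL/6 mice labelled Lrig1CreERT2xRosa26Confetti, which carry a Cre recombinase that tamoxifen can switch on, driven by Lrig1, and a multicolour reporter at Rosa26. No induction is given in the labels, and they name no group without these alleles. Basal cells were cut from fresh frozen tissue by laser capture microdissection, a method that lifts chosen cells off a section under a microscope. Per the labels, P30 follicles were in anagen, when hair grows. They give no hair cycle stage for P10. Age and any difference in hair cycle stage therefore cannot be told apart. The labels give neither sex nor the number of animals or regions behind a library, so a p-value here covers the spread between these samples only, and that spread may be technical. In such bulk samples, fewer cells of a type and less RNA per cell cannot be told apart.

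The sebaceous gland is an appendage of the hair follicle that makes sebum, a mixture of triglycerides, wax esters, cholesterol esters and squalene. Its outer, basal layer holds dividing progenitors that express the keratins Krt5 and Krt14. Their daughters move inwards, fill with lipid droplets under the nuclear receptor Pparg, and burst to release their contents, a mode of secretion called holocrine. In mice the gland is formed during the first days after birth and from then on is renewed from its basal layer and from stem cells of the upper follicle, many of which express Lrig1.

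Library totals ran from 10018141 to 20595681 counts. P30 library 3 had the fewest counts and the fewest genes with a count, 13750 against 15162 to 19203 in the other libraries. Spearman correlations of log2(CPM + 1), where CPM is the number of counts per 1000000 after scaling, were 0.884 to 0.952 within an age and 0.819 to 0.954 between ages. The highest correlation of P30 library 3 with any other library was 0.890. Transcripts of both sexes were mixed in an uneven way. P10 library 1 and P30 library 1 had Y-linked Ddx3y at 74.6 and 72.8 CPM, with Xist, the RNA of the inactive X chromosome, at 0 and 2.23 CPM. P10 library 2 and P30 library 2 had Xist at 976 and 853 CPM and Ddx3y at 0.158 and 0 CPM. Both libraries numbered 3 held both transcripts, with Xist at 47.7 and 893 CPM and Ddx3y at 64.2 and 15 CPM.

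The captured material held keratins of basal keratinocytes, which the gland's basal layer expresses, sebocyte genes and markers of neighbouring tissue. Krt5 had 1670, 2013 and 2355 CPM at P10 and 1485, 1063 and 1089 CPM at P30, and Krt14 had 1276, 1467 and 1818 CPM at P10 and 1205, 672 and 1592 CPM at P30. The sebocyte genes Scd1, Pparg, Awat2 and Mc5r were present in every library. The skeletal muscle list, of which Ttn, the giant spring protein of the sarcomere, was the most abundant gene, took 5.99, 0.44 and 2.68% at P10 and 13.9, 11.5 and 14.4% at P30 of counts. The shares of skeletal muscle did not overlap between ages. Genes of the hair shaft and of the inner root sheath took 6.39, 19.4 and 5.44% at P10 and 11, 4.69 and 2.96% at P30. Shares of hair transcripts overlapped and were highest in P10 library 2, which had the lowest muscle share. Adipocyte genes took 0.163, 0.0779 and 0.127% at P10 and 0.44, 0.327 and 0.645% at P30, and dermal fibroblast genes took 1.96, 1.34 and 3.31% at P10 and 1.23, 2.63 and 2.64% at P30. Macrophage and dendritic genes took 0.0199, 0.0116 and 0.0267% at P10 and 0.0262, 0.0713 and 0.0596% at P30, with P30 library 1 inside the P10 range. The part of neighbouring tissue in the results that follow was not tested, and these shares are recalled beside the gene groups they move with.

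**Figure D1:**
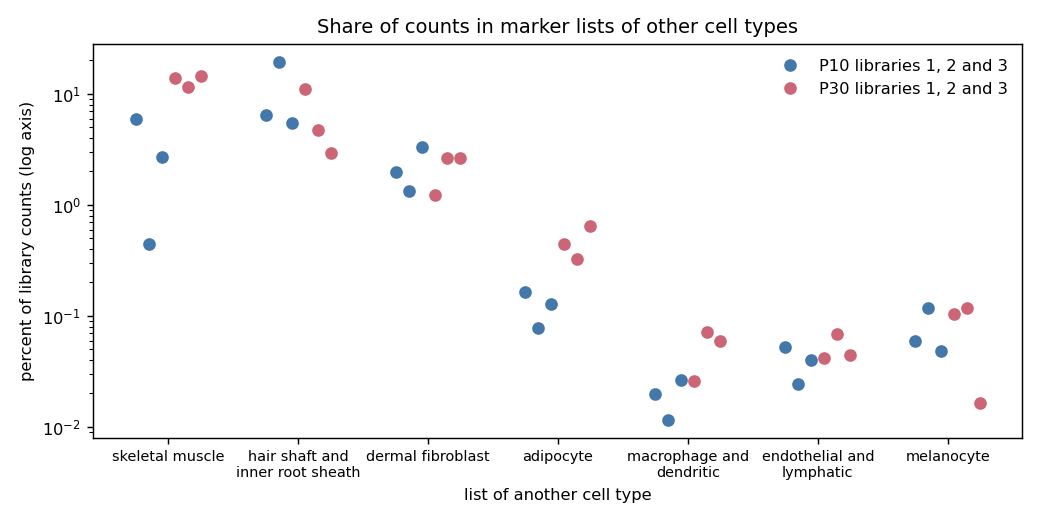
Percent of each library's counts in marker lists of 7 other cell types, on a log axis, with P10 libraries in blue and P30 libraries in red, each in the order 1, 2 and 3. The P30 points lie above all P10 points for skeletal muscle and adipocytes, and the ages overlap for the other lists.

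Promoter sequences are shown for 6 genes of 3 groups described below, because many windows in those groups held a motif known for the group, and for 1 gene outside them, Serpinb6a. Each window runs from 250 bases before to 50 bases after the RefSeq start site (GRCm38.p6) and is written 5′ to 3′ on the strand of the gene. Capitals mark the motif found by a search of both strands, and the motifs were chosen after the expression values were seen. The first motif is that of interferon-regulated genes, GAAA, any 2 bases, and GAAA again. It was in 9 of 22 windows of the antigen presentation and interferon list (40.9%), in 3.65% of the windows of 11197 tested genes and in 3.99% of all 27025 windows. That list was drawn up from genes known to respond to interferon, so a high share is part of how it was chosen. B2m (chr2:122147437-122147736, + strand), Gbp2 (chr3:142620413-142620712, + strand) and Gbp3 (chr3:142559794-142560093, + strand) belong to it. Serpinb6a (chr13:34002745-34003044, - strand) is outside it and passed the test below. Its window is shown for its match, which says nothing of the other genes that passed. In the complement and antimicrobial list, to which C3 and C4b belong, 1 of 16 windows held the motif (6.25%), that of Cd59a.
B2m: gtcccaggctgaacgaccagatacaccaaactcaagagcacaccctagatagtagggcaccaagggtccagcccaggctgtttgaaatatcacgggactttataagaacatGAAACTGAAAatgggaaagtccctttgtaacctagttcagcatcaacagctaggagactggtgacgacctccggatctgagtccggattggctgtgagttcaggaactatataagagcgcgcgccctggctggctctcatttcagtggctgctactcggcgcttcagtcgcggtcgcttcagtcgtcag
Gbp2: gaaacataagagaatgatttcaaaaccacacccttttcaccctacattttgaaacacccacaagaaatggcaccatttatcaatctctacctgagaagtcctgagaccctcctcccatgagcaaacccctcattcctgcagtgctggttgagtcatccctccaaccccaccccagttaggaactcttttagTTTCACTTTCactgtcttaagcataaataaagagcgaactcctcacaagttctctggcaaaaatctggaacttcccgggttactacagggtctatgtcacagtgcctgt
Gbp3: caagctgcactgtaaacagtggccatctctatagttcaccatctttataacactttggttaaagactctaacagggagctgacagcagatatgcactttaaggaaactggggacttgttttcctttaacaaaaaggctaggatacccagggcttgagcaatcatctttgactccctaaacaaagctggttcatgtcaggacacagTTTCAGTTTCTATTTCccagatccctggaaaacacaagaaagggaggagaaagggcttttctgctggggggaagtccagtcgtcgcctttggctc
Serpinb6a: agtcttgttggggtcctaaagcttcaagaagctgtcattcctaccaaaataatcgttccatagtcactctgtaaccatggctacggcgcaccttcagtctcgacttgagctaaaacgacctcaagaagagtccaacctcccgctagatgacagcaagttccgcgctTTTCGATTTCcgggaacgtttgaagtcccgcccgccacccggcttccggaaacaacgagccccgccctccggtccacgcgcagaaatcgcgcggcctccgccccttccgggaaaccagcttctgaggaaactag
The matches lay 139 bases before the start in B2m, 59 in Gbp2, 45 and 39 in Gbp3, where they overlap, and 84 in Serpinb6a. The second motif, CCAAT, was in 29 of 38 windows of the S phase, G2 and mitosis genes (76.3%), against 42.3% of tested genes. It was not particular to them: 13 of 16 circadian clock windows (81.2%) and 12 of 22 windows of the antigen presentation and interferon list (54.5%) also held it. It occurred 3 times in the windows of Cdk1, the kinase of mitotic entry (chr10:69352863-69353162, - strand), and of its partner cyclin Ccnb2 (chr9:70421505-70421804, - strand).
Cdk1: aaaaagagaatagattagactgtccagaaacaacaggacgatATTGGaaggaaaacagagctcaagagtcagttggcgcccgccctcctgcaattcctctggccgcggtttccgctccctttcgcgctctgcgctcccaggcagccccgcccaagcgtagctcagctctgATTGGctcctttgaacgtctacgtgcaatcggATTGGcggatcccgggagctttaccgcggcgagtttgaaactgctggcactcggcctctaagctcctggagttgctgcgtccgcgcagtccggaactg
Ccnb2: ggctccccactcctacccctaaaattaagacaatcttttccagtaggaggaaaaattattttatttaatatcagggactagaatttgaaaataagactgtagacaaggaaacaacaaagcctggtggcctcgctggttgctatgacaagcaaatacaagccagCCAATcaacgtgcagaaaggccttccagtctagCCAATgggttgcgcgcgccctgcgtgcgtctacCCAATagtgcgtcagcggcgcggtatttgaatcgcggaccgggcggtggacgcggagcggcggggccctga
The third motif is the E-box CACGTG, the sequence bound by the clock proteins CLOCK and ARNTL. It was in 5 of 16 windows of the circadian clock list (31.2%), against 11.4% of tested genes. It was also in 5 of 23 glycolysis windows (21.7%). The clock list was drawn up from known clock genes, so a high share may be part of how it was chosen. Among its genes with the E-box was Cry1, which was lower at P30, while the windows of Dbp and Nr1d2, which were higher, held none. Per1, a clock repressor (chr11:69098699-69098998, + strand), held the E-box 166 bases before the start.
Per1: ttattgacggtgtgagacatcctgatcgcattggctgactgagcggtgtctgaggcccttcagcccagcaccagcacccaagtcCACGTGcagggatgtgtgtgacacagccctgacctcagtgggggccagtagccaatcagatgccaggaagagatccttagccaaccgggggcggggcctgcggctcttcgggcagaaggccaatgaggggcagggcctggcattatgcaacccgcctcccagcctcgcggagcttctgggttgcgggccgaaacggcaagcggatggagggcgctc
A match is a description of the sequence and not a measured binding site.

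Of the 14477 genes, 5 passed the edgeR quasi-likelihood test at an adjusted p of 0.05. The 4 that rose were the complement genes C3 and C4b, the protease inhibitor gene Serpinb6a and the orphan nuclear receptor gene Nr4a1, which is 0.0276% of the genes tested. The 1 that fell was Car6, which encodes a secreted carbonic anhydrase and is 0.00691% of the genes tested. At an unadjusted p of 0.05, 1091 genes were higher and 509 lower at P30. The ranges of the 2 ages did not overlap for 1602 genes higher at P30 (11.1%) and 1403 genes lower (9.69%), and the median log2 fold change over all genes was -0.02. Counts of list members without overlap, given below, are to be read beside these 2 shares. The common dispersion of 0.269 describes the spread between libraries of an age that these calls had to exceed.

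C3, the central component of the complement cascade (chromosome 17, 57203967 to 57228136, mm10), had 16.4, 8.66 and 14.6 CPM at P10 and 202, 203 and 368 CPM at P30. Every P30 library lay above every P10 library, and C3 rose by 4.29 ± 0.38 (log2 ± SE; edgeR adjusted p = 0.0419). C4b, which encodes complement C4 (chromosome 17, 34728139 to 34743902), had 28.2, 17.7 and 20.1 CPM at P10 and 123, 169 and 239 CPM at P30. C4b rose by 3.01 ± 0.32 (edgeR adjusted p = 0.0486), again with no overlap. Its near-identical neighbour C4a, whose reads the counting may have split with C4b, had 4.3, 4.22 and 1.19 CPM at P10 and 21.1, 25.6 and 46.9 CPM at P30 and did not pass (edgeR adjusted p = 0.113). The cascade is an innate defence in which cleaved C3 coats surfaces, and C4 belongs to the branch started by antibody or lectin.

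Serpinb6a encodes an inhibitor of serine proteases that acts inside cells (chromosome 13, 33917918 to 34002794). It had 77.2, 53.6 and 65.4 CPM at P10 and 323, 266 and 288 CPM at P30 and rose by 2.16 ± 0.21 (edgeR adjusted p = 0.0445). Its paralog Serpinb6b had 2.03, 1.11 and 0.0662 CPM at P10 and 1.12, 5.49 and 5.14 CPM at P30, with overlapping ages. Nr4a1 (chromosome 15, 101253902 to 101274795), a nuclear receptor induced within minutes by many stimuli, had 6.58, 6.07 and 7.54 CPM at P10 and 32.6, 39.9 and 35.6 CPM at P30. Its levels at P30 lay close together and well above P10, a rise of 2.42 ± 0.26 (edgeR adjusted p = 0.0486). Car6 (chromosome 4, 150187015 to 150201135), known as the carbonic anhydrase of saliva and tears, had 426, 299 and 434 CPM at P10 and 23.4, 46.6 and 33.4 CPM at P30. It fell by 3.48 on the log2 scale, with an SE of 0.32 (edgeR adjusted p = 0.0419), and the lowest P10 library was well above the highest P30 library.

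The 5 calls kept their direction under each of 16 alternative settings and their threshold under 6 or 7 of them. With edgeR 0 genes passed without P10 library 2, P30 library 1 or P30 library 3, 1 passed without P10 library 3 (Mir6240) or P30 library 2 (Atp12a), and 21 without P10 library 1.

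**Figure D2:**
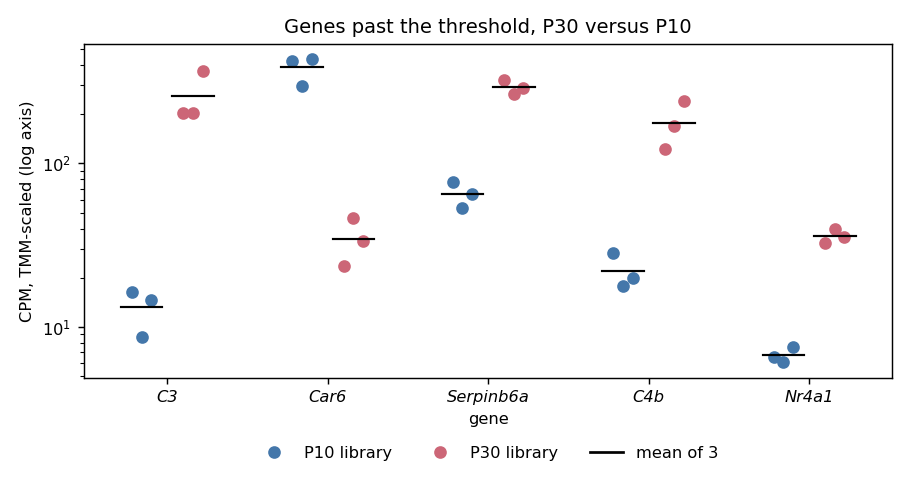
Level of the 5 genes that passed the test in each library, in CPM on a log axis, with P10 in blue, P30 in red and a bar at the mean of 3 libraries. C3, Serpinb6a, C4b and Nr4a1 were higher in all P30 libraries and Car6 was lower in all P30 libraries.

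Beyond the 5 calls, the genes with the smallest p in each direction, at least 10 CPM and no overlap between ages were followed, up to 12 a direction. None of the additional genes passed the threshold. On the higher side stood 3 secreted proteins of innate defence and the acute phase. Serpina3n, a protease inhibitor, had 5.82, 8.66 and 7.01 CPM at P10 and 35.3, 36.6 and 55.1 CPM at P30. Cfb, the protease of the alternative complement pathway, had 9.75, 5.02 and 7.15 CPM at P10 and 35.5, 40.2 and 39.5 CPM at P30. Lyz1, a lysozyme that cuts bacterial walls and whose reads may be shared with its near-identical neighbour Lyz2, had 0.76, 0.686 and 1.12 CPM at P10 and 11, 22.8 and 17.4 CPM at P30. The P30 values of all 3 genes exceeded every P10 value, at edgeR adjusted p of 0.0642, 0.0669 and 0.0642. Lgals3bp, a secreted glycoprotein that binds galectins, had 11.6, 8.45 and 12 CPM at P10 and 44.9, 62 and 105 CPM at P30, and Tnfaip2, a gene induced by tumour necrosis factor, had 11.5, 9.03 and 6.75 CPM at P10 and 39, 50.1 and 45.2 CPM at P30. Pfkfb3, which makes the strongest activator of the glycolytic enzyme phosphofructokinase, had 16, 16.5 and 13.6 CPM at P10 and 77.5, 61.6 and 129 CPM at P30. The last of them, Synm and Lmod1, are cytoskeletal genes of muscle. Synm, for an intermediate filament protein, had 85.5, 31.6 and 55.5 CPM at P10 and 697, 500 and 723 CPM at P30, and Lmod1, for an actin nucleator of smooth muscle, had 6.84, 8.66 and 14.7 CPM at P10 and 56.4, 64.9 and 63.5 CPM at P30.

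The 12 genes on the lower side had varied roles, and of these Car6 alone passed. Epcam, an epithelial adhesion molecule, had 142, 182 and 212 CPM at P10 and 67, 65.1 and 58.4 CPM at P30. Ehf, an epithelial transcription factor of the ETS family, had 48.4, 41 and 40.5 CPM at P10 and 13, 16.7 and 14.1 CPM at P30. The 2 genes differed by -1.49 ± 0.21 and -1.56 ± 0.22 on the log2 scale without passing (edgeR adjusted p = 0.0669 and 0.0865). Plb1, a membrane phospholipase, had 117, 109 and 46.1 CPM at P10 and 10.7, 11 and 6.96 CPM at P30, and Sprr4, a protein of the cornified envelope, had 160, 122 and 168 CPM at P10 and 4.12, 18 and 9.0 CPM at P30. Each P30 library lay far below every P10 library for both genes, with log2 fold changes of -3.24 ± 0.40 and -3.85 ± 0.52 (edgeR adjusted p = 0.0657 and 0.0669). Clu, an extracellular chaperone, had 408, 448 and 481 CPM at P10 and 159, 71.2 and 102 CPM at P30. The remaining genes were Glrx, a thiol reductase, at -1.70 ± 0.23, Cstb, an inhibitor of cathepsins, at -1.66 ± 0.24, the membrane protease Tmprss13 at -1.73 ± 0.26, Cpsf4l at -3.68 ± 0.58, the imprinted gene Mest at -1.65 ± 0.26 and its neighbour Cpa4, a carboxypeptidase, at -1.22 ± 0.21.

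**Figure D3:**
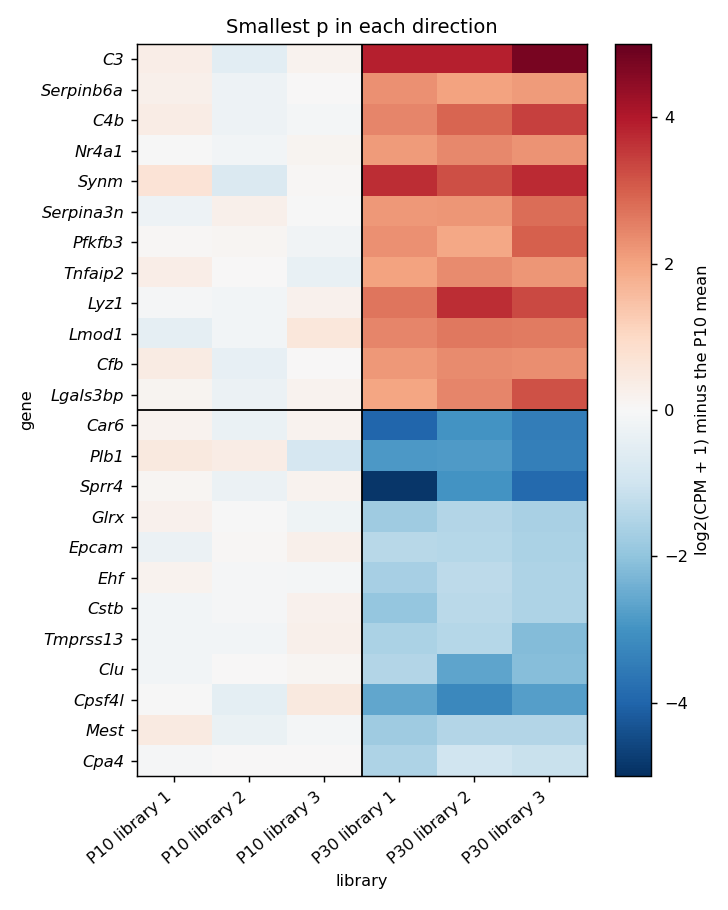
Level of 24 genes in each library as log2(CPM + 1) minus the mean of the P10 libraries, for the 12 genes with the smallest p on the higher side (top) and the 12 on the lower side (bottom). The genes were chosen for not overlapping between ages, so the separation of the columns is part of the choice.

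Genes of the complement system were higher at P30 as a group. Of the 14 complement genes listed, all 14 were measured and 13 had a positive fold change. The 2 ages did not overlap in 12 of them, all higher at P30, with a median log2 fold change of 1.67, against 11.1% of all genes without overlap on that side and a median of -0.02. C1qa, a chain of the recognition protein C1q, had 7.53, 5.54 and 9.6 CPM at P10 and 22.6, 55.6 and 32.1 CPM at P30. Cfd, the protease factor D, had 127, 70.3 and 103 CPM at P10 and 370, 193 and 497 CPM at P30, and is also made by adipocytes. The regulators followed the same direction: Cd55, a membrane brake, had 16.1, 11.4 and 22 CPM at P10 and 33.4, 50.1 and 29.8 CPM at P30, and the C1 inhibitor Serping1 had 82.2, 47.4 and 97.4 CPM at P10 and 109, 191 and 135 CPM at P30. C2 was the exception, with 10.2, 8.08 and 9.2 CPM at P10 and 9.14, 13.5 and 3.43 CPM at P30. C1q is mostly a product of macrophages, and the macrophage list stood at a median of 1.46 over 14 genes, 8 of them higher with no overlap. Its members Cd68 and Lyz2 had 6.46, 3.91 and 5.36 CPM at P10 and 11.7, 26.6 and 35.6 CPM at P30, and 17.3, 18 and 34.9 CPM at P10 and 53.2, 123 and 71.1 CPM at P30. C1qa, Cd68, Lyz2 and the macrophage share were lower in P30 library 1 than in the other P30 libraries. The part of macrophages and adipocytes in the complement values was not tested. Antimicrobial genes had no shared direction. Only 4 of 11 listed passed the filter on low counts, of which Defb1, a beta-defensin of epithelia, had 10.1, 18.9 and 15.6 CPM at P10 and 4.39, 8.38 and 8.89 CPM at P30. Among 5 measured alarm signals such as Il1a and Il33, 4 had a negative fold change and no member lacked overlap.

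Genes of interferon response and antigen presentation were higher in most P30 libraries, with none past the threshold. All 29 measured of 30 listed had a positive fold change, and 14 did not overlap between ages (48.3%, against 11.1% of all genes), with a median of 1.11. B2m, the light chain of class I molecules, had 75.2, 71.9 and 102 CPM at P10 and 123, 219 and 456 CPM at P30. H2-D1, a class I heavy chain, had 22.6, 24.7 and 19.6 CPM at P10 and 32.8, 49.9 and 67.2 CPM at P30. P30 library 1 was the lowest P30 library for both genes, just above the P10 range. Class I genes without overlap numbered 4 of 9. Class II genes, which dendritic cells and macrophages carry, numbered 0 of 6, and their invariant chain Cd74 had 29, 74.2 and 104 CPM at P10 and 48.9, 216 and 158 CPM at P30. Of 14 measured response genes 10 did not overlap. Ifi27 had 9.49, 3.8 and 6.42 CPM at P10 and 15.7, 20.3 and 36.2 CPM at P30, and Gbp3, a guanylate-binding protein that attacks intracellular microbes, had 6.14, 8.02 and 2.05 CPM at P10 and 12.5, 23.7 and 75.3 CPM at P30. Ifit3, an inhibitor of viral RNA translation, was led by a single library, with 1.33, 2.64 and 0 CPM at P10 and 8.79, 10.1 and 68.9 CPM at P30.

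Related families, chosen after their values were seen, had the same direction. Of 8 tested guanylate-binding protein genes, 7 were higher with no overlap. The 11 symbols counted for this family, tested or not, summed to 40.3, 37.5 and 32 CPM at P10 and 83.6, 121 and 187 CPM at P30. All 6 tested genes of the Ifi200 family, sensors of DNA, were higher with no overlap. The 7 symbols counted for this family, 6 of them tested, summed to 17.5, 16.2 and 16 CPM at P10 and 73.5, 88.5 and 121 CPM at P30. Of these, Ifi204 had 2.66, 2.38 and 3.71 CPM at P10 and 16.4, 23.6 and 24.6 CPM at P30 and Ifi205 had 3.86, 2.27 and 0.993 CPM at P10 and 25.7, 25.5 and 31.1 CPM at P30, at edgeR adjusted p of 0.0669 and 0.0921. T cell genes had no shared direction: of 6 measured T cell genes 4 had a negative fold change, and Cd3e, a chain of the T cell receptor complex, had 0.57, 2.53 and 4.37 CPM at P10 and 0.279, 3.52 and 0 CPM at P30.

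**Figure D4:**
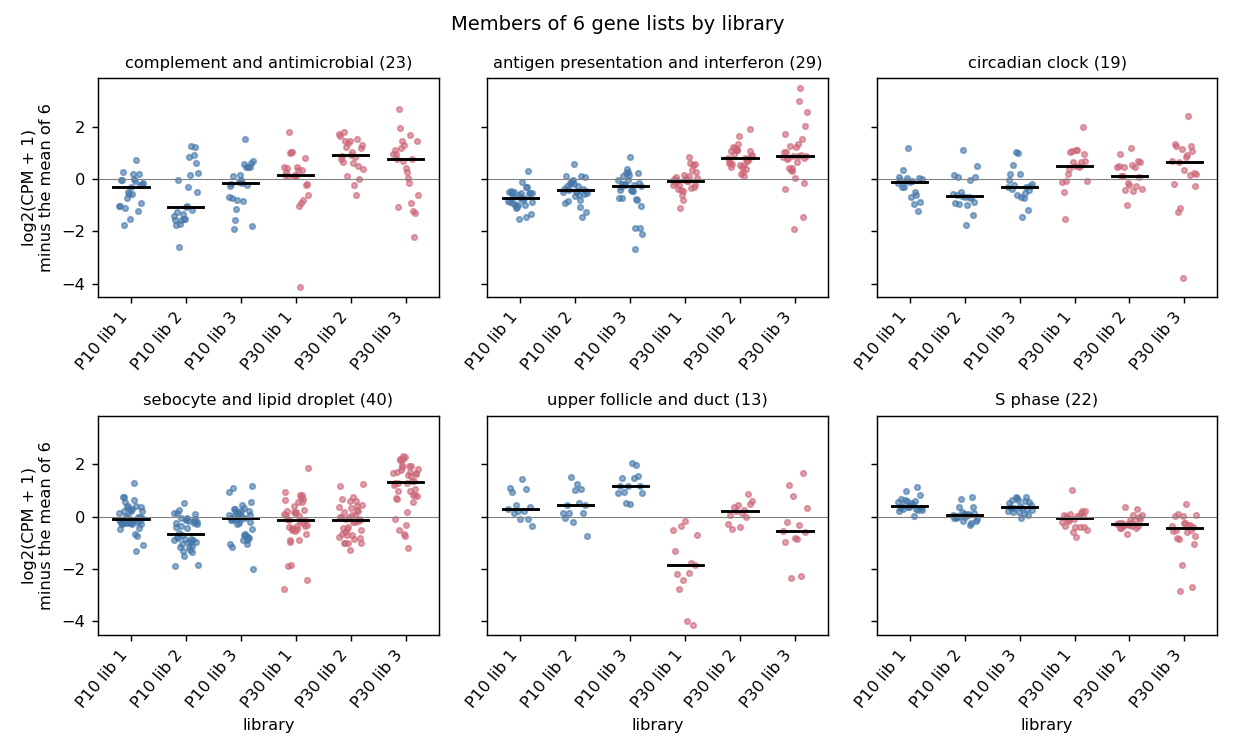
Members of 6 gene lists in each library, as log2(CPM + 1) minus the mean of the 6 libraries, with a bar at the median and the number of measured members in each panel's title. The medians of the sebocyte list at P30 were -0.13, -0.11 and 1.32 in libraries 1, 2 and 3, while the S phase medians were positive in the P10 libraries and negative in the P30 libraries.

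Markers of the upper follicle and of the duct that joins it to the gland were lower at P30. Of 13 measured genes, 11 had a negative fold change, 6 lacked overlap, all lower, and the median was -1.11, against 9.69% of all genes without overlap on that side. The most abundant gene of the list, Krt17, is also in the outer root sheath list. The median was -1.91 without P30 library 2, -0.90 without P30 library 1 and -0.83 without both libraries numbered 3. The level of the list differed widely among P30 libraries. Its median log2 level relative to the mean of the 6 libraries was 0.30, 0.46 and 1.17 at P10 and -1.85, 0.20 and -0.54 at P30. Lrig1, a brake on growth factor receptors that marks upper follicle stem cells, and whose gene carries the Cre here, had 134, 118 and 206 CPM at P10 and 75.5, 89.7 and 74.6 CPM at P30. Plet1, a surface protein of the same region, had 73.4, 52.9 and 109 CPM at P10 and 7.6, 27.3 and 32.6 CPM at P30. Lgr6, a receptor for Wnt-boosting R-spondins, had 31.8, 14.1 and 34.1 CPM at P10 and 5.3, 15.2 and 6.86 CPM at P30. Lrig1 and Plet1 did not overlap, while P30 library 2 reached into the P10 range for Lgr6. The duct keratin Krt79 had 491, 369 and 961 CPM at P10 and 79.7, 586 and 748 CPM at P30, so that its low value stood in 1 library only. Gata6, a transcription factor of the duct, was likewise lowest in that library, with 7.6, 7.44 and 13.8 CPM at P10 and 0.14, 8.94 and 17 CPM at P30.

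Several genes of surface barriers had lower values at P30, and those of this paragraph were chosen after their values were seen, except Klk10. Atp12a, a proton pump of the gut and skin, had 483, 311 and 444 CPM at P10 and 2.44, 33.9 and 2.57 CPM at P30. Asprv1, the aspartic protease that processes filaggrin, had 381, 444 and 409 CPM at P10 and 33.3, 134 and 58 CPM at P30. Spink5, which holds kallikrein proteases in check, had 604, 658 and 909 CPM at P10 and 159, 310 and 163 CPM at P30, and the kallikreins Klk7 and Klk10 had 267, 367 and 332 CPM at P10 and 146, 153 and 102 CPM at P30, and 135, 135 and 257 CPM at P10 and 18.2, 63.6 and 12.5 CPM at P30. In each of these 5 genes the highest P30 library was below the lowest P10 library, without an adjusted p under the threshold (edgeR, 0.165, 0.143, 0.122, 0.121 and 0.222). Of 8 kallikrein genes tested 7 had a negative fold change, and of 7 genes of the Tmprss family of membrane serine proteases all 7 did, with medians of -1.19 and -1.73. The epithelial calcium channel gene Trpv6 had 35.3, 26.6 and 39.1 CPM at P10 and 3.0, 3.1 and 0 CPM at P30.

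The layer markers themselves were mixed. Of 12 late cornification genes measured out of 14, 11 had a negative fold change and 1 was lower without overlap (8.33%, against 9.69% of all genes). Their median of -0.96 ran from -2.53 (P30 library 2 left out) to -0.33 (P10 library 3 left out). The median of all 19 measured suprabasal genes was -0.67, but 0.24, of the opposite sign, without P10 library 3. Leaving out P30 library 2 gave -2.35. Sprr1a, a cornified envelope precursor, had 1510, 2052 and 1641 CPM at P10 and 1075, 511 and 228 CPM at P30. Krt10, the keratin of the first suprabasal layer, ranged widely within each age, with 26.1, 382 and 931 CPM at P10 and 88.3, 1617 and 29.8 CPM at P30. Of 23 basal keratinocyte genes, 4 were higher and 4 lower with no overlap (17.4% each, against 11.1 and 9.69% of all genes). Their median of -0.37 was -0.19 without P30 library 3 and 0.03 without both libraries numbered 3. The structural linkers Plec and Nid1 were on the higher side, with 1850, 1711 and 2317 CPM at P10 and 3171, 2911 and 3775 CPM at P30 for Plec, which ties keratin to integrins, and 304, 167 and 335 CPM at P10 and 401, 538 and 624 CPM at P30 for Nid1, a basement membrane protein. Krt5 and Col7a1, the collagen of anchoring fibrils, were on the lower side, Col7a1 with 60.1, 54.9 and 185 CPM at P10 and 23.3, 52 and 45.5 CPM at P30. The adult bulge stem cell regulator Sox9 had 256, 325 and 385 CPM at P10 and 231, 105 and 163 CPM at P30, lower with no overlap, and Prdm1, a transcriptional repressor found in sebaceous and upper follicle cells, had 76.6, 161 and 80.7 CPM at P10 and 43.2, 63.7 and 10.1 CPM at P30.

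Lipid synthesis genes had higher means at P30, and much of the difference stood in P30 library 3. The sebocyte list of 40 genes had a median of 0.73, but without P30 library 3 the median was -0.11. Of these genes 10 were higher (25%, against 11.1% of all genes) and 0 lower without overlap. The list took 0.93, 0.474 and 0.905% at P10 and 0.695, 0.659 and 2.65% at P30 of counts. Scd1, the desaturase that makes the monounsaturated acids of sebum, had 1931, 817 and 1943 CPM at P10 and 2609, 1731 and 10490 CPM at P30, and Pparg had 20.5, 11.7 and 23.5 CPM at P10 and 24.3, 12.5 and 72.7 CPM at P30. Both overlapped between ages, with 1 high library at P30. Some genes were higher in all P30 libraries. Fasn, the fatty acid synthase, had 593, 465 and 582 CPM at P10 and 1530, 1030 and 3415 CPM at P30. Thrsp, a lipogenic regulator, had 8.74, 1.69 and 5.29 CPM at P10 and 72, 40.1 and 74 CPM at P30. Dgat2, which makes triglycerides, had 35, 48.5 and 53.7 CPM at P10 and 152, 137 and 265 CPM at P30. Agpat2, of the same route, had 19, 14 and 16.8 CPM at P10 and 48.3, 38.4 and 125 CPM at P30, and Mlxipl, the carbohydrate-sensing regulator, had 11, 3.48 and 7.21 CPM at P10 and 31.3, 36.9 and 40.2 CPM at P30. Their edgeR adjusted p ran from 0.103 to 0.203.

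By role, the droplet proteins and acyltransferases had 5 of 12 genes higher with no overlap (41.7%, against 11.1% of all genes). Their median of 0.87 was 0.45 without P30 library 3. The regulators had 3 of 7 (42.9%), and their median of 0.85 was 0.27 without that library. The wax and fatty alcohol enzymes had 0 of 5, too few genes to set against the 11.1%. Their median was -0.16 (-0.97 without P30 library 3, 0.17 without P30 library 2). Awat2, the wax synthase of sebaceous glands, had 34.2, 12.7 and 25 CPM at P10 and 14.8, 9.58 and 40.3 CPM at P30, with overlapping ages. The synthesis genes had a median of 0.34, which was -0.04 without P30 library 3. Of these, 3 of 5 for fatty acids (60%) and 0 of 19 for cholesterol were higher without overlap, with medians of 1.53 and 0.32. Without P30 library 3 these were 0.75 and -0.21. Adipocytes use many of the same genes, and all 12 adipocyte genes had a positive fold change, 9 without overlap, with a median of 1.87. Adipoq, a hormone of fat cells, had 38.2, 17.7 and 31 CPM at P10 and 96.2, 57.2 and 174 CPM at P30. Plin1, the coat of their droplets, had 54.1, 41.8 and 41.7 CPM at P10 and 177, 120 and 344 CPM at P30, and Lep, which encodes leptin, had 16.4, 18.3 and 31.2 CPM at P10 and 74.2, 32.5 and 85.1 CPM at P30. Genes of holocrine death had no shared direction, with a median of 0.00 over 29 genes that ran from -0.09 without P10 library 1 to 0.20 without P10 library 2. The nuclease gene Dnase1l2, whose product degrades DNA in cornifying and sebaceous cells, had 46.7, 89 and 43.8 CPM at P10 and 17.8, 11.4 and 3.64 CPM at P30, and Dnase2a, the lysosomal nuclease, had 72.9, 75.9 and 74.7 CPM at P10 and 50.7, 54.8 and 44.1 CPM at P30. Both were lower with no overlap, as were 3 of 4 nucleases measured.

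**Figure D5:**
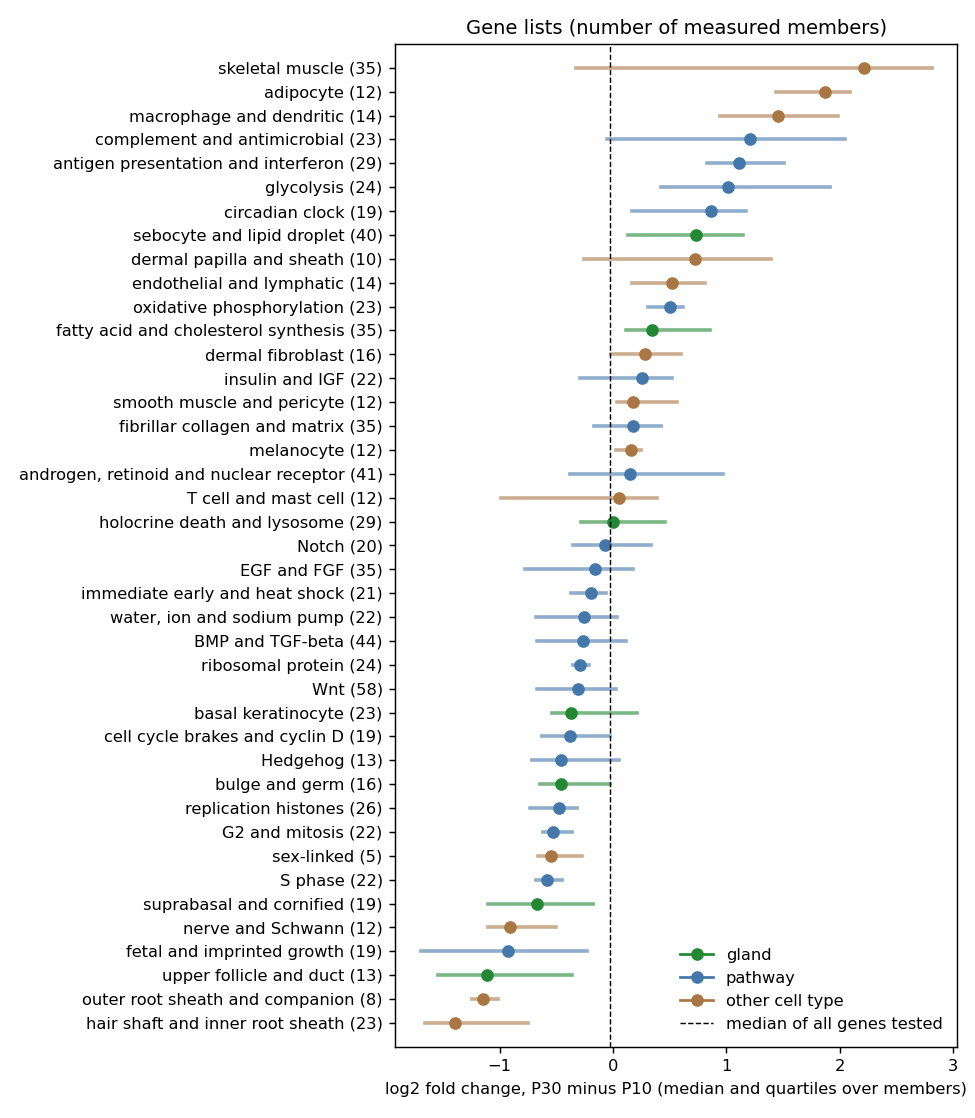
Median log2 fold change, P30 minus P10, of 41 gene lists (points) with quartiles over members (bars), and the median of all genes tested as a dashed line. The highest medians are those of skeletal muscle, adipocyte and macrophage lists, and the lowest that of the hair shaft list.

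Sarcomere genes were higher at P30 and the myosin forms differed in their proportions, with no gene past the threshold. Of 27 adult and shared sarcomere genes 24 were higher with no overlap (88.9%, against 11.1% of all genes), with a median of 2.40. The 8 measured developmental muscle genes all had a negative fold change, but 0 lacked overlap. Their median of -0.81 was -1.35 without P10 library 2 and -0.24 without P10 library 1. Myh4, the fastest adult myosin, had 706, 110 and 232 CPM at P10 and 16286, 16347 and 14667 CPM at P30. Myh8, the perinatal myosin, had 6782, 337 and 2704 CPM at P10 and 1812, 1199 and 1522 CPM at P30, with overlapping ages. Myh1 and Myh2, also adult fast forms, had 4987, 704 and 2657 CPM at P10 and 23271, 11011 and 22858 CPM at P30, and 1684, 273 and 977 CPM at P10 and 5316, 1890 and 5277 CPM at P30. Myh8 exceeded each adult form in P10 library 1 and, narrowly, in P10 library 3, Myh1 exceeded it in P10 library 2, and Myh4 and Myh1 each exceeded Myh8 at P30. These 4 myosins have messages of near equal length, and the levels compared are CPM. Glycolysis genes had a median of 1.01, with 14 of 24 higher and 2 lower without overlap (58.3 and 8.33%, against 11.1 and 9.69% of all genes). The list held isoforms of muscle (Eno3, Pgam2, Pfkm and Slc2a4), and Eno3, the muscle enolase, had 223, 28.4 and 74 CPM at P10 and 975, 578 and 585 CPM at P30. Some isoforms used by most tissues had smaller differences than Eno3. Gpi1 had 142, 131 and 113 CPM at P10 and 258, 215 and 272 CPM at P30, and Ldha had 209, 151 and 187 CPM at P10 and 481, 401 and 383 CPM at P30. Aldoa, which muscle also uses, had 730, 672 and 547 CPM at P10 and 2647, 1955 and 2125 CPM at P30. Pfkfb3, a member of the list whose values are given above, differed by more than Gpi1, Ldha and Aldoa. The part of muscle in these values was not tested. Slc2a1, the glucose transporter of keratinocytes, had 22.7, 22.4 and 35.5 CPM at P10 and 12.1, 22 and 2.79 CPM at P30, and Pfkp had 48, 59.5 and 73.7 CPM at P10 and 43.5, 46.9 and 34 CPM at P30, both lower with no overlap. Nuclear genes of the respiratory chain complexes all had positive fold changes, 18 of 18, of which 9 did not overlap, and Uqcrc1, a core subunit of complex III, had 153, 144 and 114 CPM at P10 and 235, 197 and 227 CPM at P30. Ribosomal protein genes were lower without overlap in 12 of 24 (50%, against 9.69% of all genes), with a median of -0.29.

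The circadian clock is a loop in which CLOCK and ARNTL switch on their own repressors, with a period of about a day. Of 19 clock genes 10 were higher and 1 lower without overlap (52.6 and 5.26%, against 11.1 and 9.69% of all genes). Their median was 0.86, and none passed. Dbp, an output gene driven directly by the loop, had 9.24, 8.29 and 9.6 CPM at P10 and 93.9, 37.3 and 49.7 CPM at P30 (edgeR adjusted p = 0.0669). Nr1d1 and Nr1d2, repressors of Arntl, had 15, 6.7 and 15.3 CPM at P10 and 54.5, 58.7 and 45.9 CPM at P30, and 28.6, 14.6 and 10.3 CPM at P10 and 65.7, 43.5 and 56.9 CPM at P30. Per1, whose window is printed above with its E-box, had 45.8, 29.1 and 48.9 CPM at P10 and 75.2, 78.1 and 91.3 CPM at P30. All 4 genes were higher in every P30 library. The driver Arntl had 23.9, 25 and 21.5 CPM at P10 and 15.6, 31.9 and 19.5 CPM at P30, with overlapping ages. Cry1 had 30.1, 28.8 and 26.5 CPM at P10 and 20.6, 11.2 and 0 CPM at P30, the lower gene without overlap. The time of day of sampling is not given in the labels, so age and time of day cannot be told apart here.

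Nr4a1 had a direction opposite to most other immediate early genes, a class that many stimuli and tissue handling induce. Of 13 measured, 11 had a negative fold change. Egr1 had 138, 177 and 151 CPM at P10 and 96.4, 115 and 79.1 CPM at P30, Egr2 had 74.4, 81.7 and 121 CPM at P10 and 30.6, 47.6 and 65 CPM at P30 and Junb had 81, 170 and 105 CPM at P10 and 70.7, 69.9 and 30.7 CPM at P30, each lower at P30 with no overlap and none past the threshold. Its close relative Nr4a3 had 3.92, 4.7 and 9.6 CPM at P10 and 16.2, 26.1 and 1.39 CPM at P30, and Nr4a2 had at most 3.21 CPM in any library. Heat shock genes had a median of -0.06 over 8 genes (-0.22 without P10 library 1, 0.09 without P10 library 2), with 0 lacking overlap.

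Cell cycle transcripts were lower at P30 by small amounts. No S phase or mitosis gene passed. Of 22 S phase genes 11 were lower without overlap (50%, against 9.69% of all genes) and 0 higher. Their median of -0.59 ran from -0.70 (P10 library 2 left out) to -0.51 (P30 library 3 left out). Pcna, the sliding clamp of DNA replication, had 67.5, 56.4 and 55.6 CPM at P10 and 39.8, 34.3 and 23.4 CPM at P30. Mcm2, a subunit of the replicative helicase, had 88.1, 61.2 and 68.1 CPM at P10 and 50.8, 48.4 and 45.9 CPM at P30, and Uhrf1, which copies methylation marks, had 112, 82.9 and 101 CPM at P10 and 79.9, 61.6 and 52.5 CPM at P30. Of the G2 and mitosis genes 7 of 22 were lower without overlap (31.8%). Their median of -0.53 was -0.33 without P30 library 3 and -0.22 without both libraries numbered 3. Cdk1 had 44.1, 30.5 and 40.5 CPM at P10 and 23.4, 21.6 and 12.3 CPM at P30, while Mki67, the common marker of cycling cells, overlapped with 1106, 774 and 1191 CPM at P10 and 975, 658 and 583 CPM at P30. Replication histone genes have messages that end in a stem loop instead of a poly(A) tail, and a total RNA kit can capture them. They were lower without overlap in 16 of 26 (61.5%, against 9.69% of all genes), with a median of -0.47. Hist1h3e had 54.6, 52.2 and 76.6 CPM at P10 and 31.3, 35.6 and 25.2 CPM at P30, and histone genes of this cluster share near-identical coding sequence. The brakes on the cycle had both signs. Btg2, an antiproliferative gene, had 67.9, 68.1 and 77.4 CPM at P10 and 36.3, 40.9 and 28.6 CPM at P30, and Cdkn1a, the p21 inhibitor, had 102, 159 and 130 CPM at P10 and 66.5, 105 and 86.8 CPM at P30, while Cdkn2c, an inhibitor of cyclin D kinases, had 21.3, 16.7 and 19.1 CPM at P10 and 26.2, 23.8 and 52.5 CPM at P30. Ccnd2, one of these cyclins, had 629, 459 and 679 CPM at P10 and 439, 346 and 296 CPM at P30.

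Genes of fetal growth mostly had negative fold changes, with wide spread at P10. Mest, an imprinted gene, had 84.2, 49.1 and 57.4 CPM at P10 and 17.4, 21.8 and 21.6 CPM at P30. Igf2bp3, an RNA-binding protein of fetal tissues, had 52, 57.2 and 34.2 CPM at P10 and 6.49, 5.92 and 0.643 CPM at P30. Dlk1, an imprinted Notch-like inhibitor of fat cell formation, had 168, 9.29 and 108 CPM at P10 and 2.65, 2.75 and 0 CPM at P30. The 3 genes did not overlap, with 1 zero for Dlk1 in P30 library 3. Igf2, the fetal growth factor, had 1025, 84.9 and 541 CPM at P10 and 133, 52.6 and 59.5 CPM at P30, and overlapped in P10 library 2. H19, the imprinted RNA next to Igf2, had 4455, 461 and 1900 CPM at P10 and 2182, 1752 and 1527 CPM at P30, with no shift in one direction. P10 libraries 1 and 3, which held more of Dlk1, Igf2 and H19 than library 2, also had the higher muscle shares, 5.99 and 2.68% against 0.440%. Of 19 measured genes of 22 listed, 4 were lower without overlap (21.1%, against 9.69% of all genes). The median of -0.93 was -0.26 without P10 library 1 and -1.43 without P10 library 2. Among IGF ligands, Igf1, the growth factor of postnatal life, had 55.3, 36 and 48.4 CPM at P10 and 107, 168 and 145 CPM at P30 (edgeR adjusted p = 0.103). Its binding protein gene Igfbp6 had 22.3, 10.3 and 22.5 CPM at P10 and 29.7, 84.6 and 85.9 CPM at P30, and Igfbp5 had 378, 265 and 488 CPM at P10 and 564, 1154 and 784 CPM at P30. The receptor Igf1r had 139, 135 and 153 CPM at P10 and 132, 113 and 92.8 CPM at P30, lower with no overlap but by only -0.34 ± 0.19. Foxo3, a transcription factor restrained by insulin signals, had 107, 183 and 128 CPM at P10 and 97.4, 80.9 and 40.1 CPM at P30.

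Among signalling genes no member passed the threshold. Wnt proteins drive follicle growth and sebaceous cells form where Wnt signals are low. Of 58 measured genes of 62 listed, 6 were higher (10.3%, against 11.1% of all genes) and 13 lower without overlap (22.4%, against 9.69%). Their median of -0.31 was -0.14 without P30 library 3 and -0.48 without P30 library 2, and 11 of 13 ligands had a negative fold change. The receptor Fzd4 had 81.9, 32.3 and 49.4 CPM at P10 and 117, 109 and 142 CPM at P30, and Fzd5 had 104, 143 and 121 CPM at P10 and 84, 51.1 and 28.6 CPM at P30, and the 2 receptors did not overlap in opposite directions. The same held for soluble inhibitors. Sfrp4 had 23, 9.66 and 21.5 CPM at P10 and 39, 75.7 and 63 CPM at P30, Sfrp2 had 4.62, 6.92 and 12.2 CPM at P10 and 19.4, 26.2 and 19.4 CPM at P30, and Dkk3 had 32.2, 38.1 and 41.8 CPM at P10 and 14.1, 24.3 and 12.9 CPM at P30. Myc, a Wnt target that promotes sebocyte fate, had 37.1, 36.2 and 43.8 CPM at P10 and 25.7, 35.4 and 13.1 CPM at P30.

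Hedgehog signals support sebaceous progenitors. Ptch1, the receptor and a target gene of the pathway, had 164, 159 and 178 CPM at P10 and 107, 109 and 89.5 CPM at P30, and Hhip, a decoy that binds the ligand, had 30.9, 16.7 and 38.4 CPM at P10 and 62.1, 73.6 and 44.5 CPM at P30. The 2 genes differed between ages in opposite directions without overlap, at -0.72 ± 0.17 and 1.07 ± 0.34 on the log2 scale (edgeR adjusted p = 0.207 and 0.313). Hhip is also a gene of the dermal papilla list. The ligand Shh had 30.8, 9.66 and 37.7 CPM at P10 and 16.3, 9.79 and 0 CPM at P30, with overlapping ages. In the BMP and TGF-beta list, 2 of 44 were higher (4.55%) and 3 lower (6.82%) without overlap, both below the shares of all genes. Of these genes, Tgfbr2, a TGF-beta receptor, had 113, 86.8 and 122 CPM at P10 and 139, 217 and 176 CPM at P30, and Bmpr1a, a BMP receptor, had 195, 212 and 175 CPM at P10 and 173, 133 and 130 CPM at P30. In the Notch list, 4 of 20 were higher without overlap (20%, against 11.1% of all genes) and 2 lower (10%, near the 9.69% of all genes). Among them were Rbpj, the DNA-binding partner of Notch, with 51.3, 46 and 50.2 CPM at P10 and 52.2, 73.2 and 88.1 CPM at P30, and Numb, an inhibitor, with 71.7, 120 and 75.5 CPM at P10 and 48.6, 66.1 and 54.2 CPM at P30. All 8 measured EGF receptor family and regulator genes had a negative fold change, 3 without overlap (37.5%, against 9.69% of all genes). Among the 3 were Lrig1, also in the upper follicle list, and Erbb3, also in the nerve and Schwann cell list. Erbb3 had 186, 226 and 189 CPM at P10 and 128, 145 and 76.6 CPM at P30. The ligand Nrg4, which binds the related receptor Erbb4, had 3.99, 2.01 and 1.65 CPM at P10 and 9.21, 5.63 and 37.6 CPM at P30, and Fgf10, a dermal growth factor, had 7.28, 4.28 and 4.83 CPM at P10 and 10.5, 12.2 and 11.8 CPM at P30.

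Hormone receptors and their targets had mixed directions. Androgens enlarge the sebaceous gland at puberty, and glucocorticoids and retinoids also act on it. Esr1, an oestrogen receptor, had 25.1, 20.5 and 18.8 CPM at P10 and 46, 60.9 and 65 CPM at P30. It was higher in every P30 library (edgeR adjusted p = 0.104), and 4 of 17 receptors were higher without overlap (23.5%, against 11.1% of all genes), with none lower. Srd5a1, which makes the more potent androgen dihydrotestosterone, had 31.5, 29.3 and 29.1 CPM at P10 and 16.5, 14.7 and 19.3 CPM at P30, lower with no overlap. The glucocorticoid target Tsc22d3 had 27.5, 10.9 and 8.93 CPM at P10 and 46.9, 57.7 and 85.7 CPM at P30, and 4 of 5 such targets were higher without overlap, while Sgk1 had 82.9, 81.3 and 69.7 CPM at P10 and 68.3, 55.4 and 49.3 CPM at P30. In retinoid handling, Aldh1a1, which makes retinoic acid, had 7.53, 2.38 and 0.662 CPM at P10 and 68.6, 55.7 and 78.7 CPM at P30, and Stra6, the receptor for retinol uptake, had 41.7, 122 and 36.6 CPM at P10 and 17.6, 23.7 and 5.14 CPM at P30. The median over 41 measured genes of 44 listed was 0.15, and -0.0023 when libraries were scaled by their totals alone. It ran from 0.03 without P30 library 3 to 0.26 without P30 library 1.

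There were 3 genes with no count in any P10 library and counts in every P30 library. These 3 passed the filter on low counts through the P30 libraries only, so they had to differ, and the folds below describe them only. Mup13, a major urinary protein that carries pheromones, had 252, 57 and 142 counts at P30, at least 204-fold higher against a floor of 3 counts over the P10 group. Mucl1, a small mucin-like secreted protein, had 64, 31 and 151 counts (at least 126-fold), and Gsta3, a glutathione transferase, had 34, 24 and 41 counts (at least 46.8-fold). None passed (edgeR adjusted p = 0.103, 0.153 and 0.199). No tested gene had counts of 0 in all P30 libraries. Mup genes are near-identical copies, so reads may be assigned to the wrong member. The 21 Mup symbols counted, 3 of them tested, summed to 1.33, 0.634 and 1.19 CPM at P10 and 68.1, 13.8 and 89.0 CPM at P30. P30 libraries 1 and 3, which held Y-linked transcripts, had the higher Mup sums. The part of sex in this difference was not tested.

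Markers of dermal and vascular cells were described as well, and the part of these cells in the secreted genes above was not tested. Of 16 fibroblast genes 4 were higher (25%, against 11.1% of all genes) and 0 lower without overlap. Their median of 0.28 was 0.09 without P30 library 2 and 0.47 without P30 library 1. Pi16, a marker of adventitial fibroblasts, had 9.49, 5.75 and 27.3 CPM at P10 and 63.5, 171 and 190 CPM at P30. Dpt, a matrix protein, had 66.9, 47.3 and 72.9 CPM at P10 and 86.4, 191 and 219 CPM at P30, and Crabp1, a retinoic acid carrier also listed for the papilla and the retinoid group, had 2.22, 3.06 and 4.1 CPM at P10 and 11.2, 13 and 18.4 CPM at P30. Fibrillar collagens and matrix genes had 1 of 35 higher and 3 lower without overlap, below the shares of all genes, and Col12a1 had 231, 212 and 296 CPM at P10 and 206, 152 and 158 CPM at P30. The vessel marker Pecam1 had 80.5, 42.8 and 43.3 CPM at P10 and 80.9, 114 and 96.3 CPM at P30, where the ages just failed to overlap. All 23 hair shaft and inner root sheath genes had a negative fold change, but 2 (8.70%) lacked overlap, against 9.69% of all genes, and the median of -1.39 was -0.25 without P10 library 2. Of 8 outer root sheath genes 3 lacked overlap, all lower, and the median of -1.14 was -0.67 without P10 library 2. Krt28, an inner root sheath keratin, had 659, 2161 and 740 CPM at P10 and 463, 521 and 255 CPM at P30. Krt17, of the outer sheath and also in the upper follicle list, had 1046, 2255 and 1585 CPM at P10 and 995, 865 and 632 CPM at P30. Melanocyte genes had 0 of 12 without overlap.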

How the data were processed

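Gene counts of 6 libraries of laser-captured basal cells, 3 at P10 and 3 at P30, were compared. The authors deposited unnormalised counts of reads for each gene symbol, which the submitters' processing notes tie to Trimmomatic 0.32, STAR, featureCounts 1.5.1 and the mm10 build. How strand and multiply aligned reads were handled is not given in the sources used here, so reads of paralogs and of overlapping or antisense genes are uncertain.

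Counts were tested in R 4.3.3 with edgeR 4.0.16 (glmQLFit and glmQLFTest) after TMM scaling, with Benjamini-Hochberg adjustment over 14477 genes and a threshold of 0.05. CPM are TMM-scaled over the tested genes, and the SE is the size of the log2 fold change over the square root of F. Totals of 10018141 to 20595681 counts set the precision of low genes. Amplified reads are not independent molecules, so the floor of 3 counts covers counting error only. Names and coordinates came from RefSeq (GRCm38.p6), which matched 24407 of 24972 symbols. The steps were tested on simulated data.

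The members and gene lists were chosen with earlier results of these data known, so lists are described by counts and medians and carry no p-value. Across all genes 35 passed the filter through P30 libraries only and 58 through P10 libraries only. Such genes had to differ, and in the lists they numbered 1 each for Wnt, complement and antimicrobial, and ion genes. Named genes were those past the threshold, the 12 with the smallest p in each direction among genes without overlap whose mean was 10 CPM or more at the age with the higher level, up to 3 members a direction of each list with at least 5 CPM (1 per role in signalling lists), and a fixed set that included Lrig1, Krt5, Pparg, Scd1, Fasn and Mki67. Some genes are not reported here. Other names were chosen after their values were seen. Alternatives were other scalings and filters, all 9 libraries, a replicate block, DESeq2 1.42.0, limma-voom (limma 3.58.1) and leaving out libraries.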

Additional observations from a re-analysis of the deposited data

How the results depend on the processing

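With 3 libraries an age, the count of genes past the threshold depended on the tool, the filter and single libraries. Against 5 genes (4 higher and 1 lower), 205 passed without a filter on low counts (175 and 30), 552 by DESeq2's Wald test (459 and 93), 29 by limma-voom (24 and 5) and 52 with quality weights (40 and 12). The count was 0 with library totals alone, with all 9 libraries in the fit and without both libraries numbered 3, the last chosen after seeing the data, and 5 with DESeq2's size factors or filterByExpr. At an unadjusted p of 0.05 the first 2 of these had 1541 and 935 genes and the third 1165, by edgeR. Leaving out 1 library gave 0 to 21 genes, with 0 to 20 higher and 0 to 1 lower. The 21 passed without P10 library 1, which had the highest muscle share at P10 (5.99%). They held 4 of the 5 calls and, among others, Pvalb, Myh4 and Synm of the muscle list. Myh4 and Synm also passed without a filter on low counts, by DESeq2's Wald test and by limma-voom with and without quality weights. The cause of the differences between settings, and the part of muscle in them, was not tested.

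With the replicate number as a block, 0 genes passed (edgeR, 1457 at an unadjusted p of 0.05). Libraries of 1 number did not deviate together, with correlations of 0.0397, 0.0063 and 0.120 over 9669 genes. No library correlated best with its own number, so the numbers were not treated as pairs. Xist and Y-linked transcripts, in contrast, did go with the number. Both libraries numbered 1 held mainly Y-linked transcripts, both numbered 2 held mainly Xist, and those numbered 3 held both kinds. The labels do not say what a number stands for, so pairing was not settled. Over 16 alternatives the 5 genes ranged on the log2 scale as follows: C3 from 3.94 to 4.44, C4b from 2.67 to 3.21, Car6 from -3.79 to -3.27, Nr4a1 from 2.28 to 2.52, Serpinb6a from 2.0 to 2.27.

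Of 41 list medians, 30 kept their sign under every setting tried. The sebocyte median was -0.058 without both libraries numbered 3 and ran from -0.11 to 1.07 when 1 library was left out. The basal keratinocyte median was 0.030 without both, and that of the nuclear receptor list was -0.0023 with library totals alone. Among named genes, these had a log2 fold change of the opposite sign under some setting: Arntl ran from -0.45 to 0.13 without 1 library; Awat2 ran from -0.97 to 0.17 without 1 library. In addition, C2 ran from -0.56 to 0.31 without 1 library, was 0.31 without both libraries numbered 3 and was 0.12 with quality weights; Cd3e was 0.28 without both libraries numbered 3; Gata6 ran from -1.08 to 0.43 without 1 library. Further, H19 ran from -0.80 to 0.60 without 1 library, was 0.15 with the replicate block, was 0.19 by limma-voom and was 0.010 with quality weights; Krt10 ran from -2.94 to 1.47 without 1 library and was -0.28 by limma-voom. Last, Krt79 ran from -0.87 to 0.14 without 1 library; Pparg ran from -0.012 to 1.35 without 1 library; Xist was -0.19 without both libraries numbered 3. The synthesis median was -0.04 without P30 library 3, the library with the fewest counts, which limits what these data show of lipid genes.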

Other observations

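Ion channel and pump genes had no shared direction, and none passed the threshold. Gja1, the main gap junction protein of basal keratinocytes, had 1368, 1788 and 1425 CPM at P10 and 1331, 662 and 719 CPM at P30, lower at P30 without overlap (edgeR adjusted p = 0.442), and 8 of 11 channel genes had a negative fold change. The calcium pump gene Atp2a1 of fast muscle had 1112, 128 and 443 CPM at P10 and 6303, 4493 and 4638 CPM at P30, higher without overlap, beside muscle shares of 5.99, 0.440 and 2.68% at P10 and 13.9, 11.5 and 14.4% at P30. Of 12 nerve and Schwann cell genes 11 had a negative fold change and 1 lacked overlap (8.33%, against 9.69% of all genes), and their median of -0.91 was 0.04 without P10 library 1.

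Some genes outside the lists were picked once their values were known, for large differences in sparse counts. Retnla, a secreted protein of alternatively activated macrophages, had 0.57, 3.43 and 0 CPM at P10 and 16.7, 73.2 and 83.9 CPM at P30, and Cd209f, a C-type lectin, had 1.33, 1.85 and 0.662 CPM at P10 and 8.37, 28.2 and 20.8 CPM at P30. Oasl2, an interferon-induced gene, had 1.65, 0.581 and 0.86 CPM at P10 and 7.05, 14.6 and 22.9 CPM at P30. All 3 were higher in every P30 library, with edgeR adjusted p of 0.188, 0.104 and 0.113, and Retnla and Cd209f were lowest among the P30 libraries in library 1, which also had the lowest macrophage share at P30 (0.0262%, against 0.0713 and 0.0596%).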
